A study of Mus musculus with 14 samples.

Results

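The levels of 5 estrogen-induced genes of the uterine epithelium, Ltf, Lcn2, C3, Muc1 and Greb1, were examined in the ovaries and uteruses of aged mice. The genes were chosen by name as a readout of the stage of the estrous cycle, and all 5 were found among the 21853 genes of the deposited table. RNA sequencing had been performed on 14 libraries, an ovary and a uterus from each of 3 OC mice and 4 OT mice. All were female C57BL/6J mice of 28 weeks, and all had received pregnant mare serum gonadotropin and, 48 h later, human chorionic gonadotropin (10 IU each) before the treatment began. The OT (old treatment) mice were then injected through the tail vein 6 times, 4 days apart, with conditioned medium of human amniotic membrane-derived mesenchymal stem cells (AMSC-CM), at 1 μL per g of body weight, and the OC (old control) mice with saline. The medium was an equal mixture from 3 donors, so the donors cannot be told apart. Whether all OT mice received 1 preparation of it is not stated. The stage of the cycle at which each mouse was killed is not given in the sources used here, so no level could be set against a stage.

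Estrogen reaches the uterus from the ovary and acts through the estrogen receptor alpha, encoded by Esr1, which binds DNA elements built of GGTCA and its complement TGACC. In the uterine epithelium of rodents the rise of estrogen before ovulation switches on genes for secreted proteins, while progesterone restrains several of them. Ltf encodes lactoferrin, an iron-binding antimicrobial protein of uterine fluid. Lcn2 encodes lipocalin 2, which captures the iron carriers of bacteria, and C3 encodes the central protein of the complement cascade. Muc1 encodes a transmembrane mucin of the apical cell surface, and Greb1 encodes a cofactor of the estrogen receptor that is itself an early target of it.

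The stretches before the start sites of Ltf, C3 and Greb1 are shown because Ltf and Greb1 varied in opposite directions in most ovaries, as described further on, and because C3, which they are set beside, held both motifs. They are RefSeq sequences of GRCm38.p6, written 5′ to 3′ on the strand of the gene, with GGTCA and TGACC in capitals. The stretch of Ltf lies at chr9:111019042-111019270 on the plus strand and ends 21 bases short of the RefSeq start, where the annotated gene begins, that of C3 at chr17:57228137-57228386 and that of Greb1 at chr12:16800887-16801136, both on the minus strand.
Ltf: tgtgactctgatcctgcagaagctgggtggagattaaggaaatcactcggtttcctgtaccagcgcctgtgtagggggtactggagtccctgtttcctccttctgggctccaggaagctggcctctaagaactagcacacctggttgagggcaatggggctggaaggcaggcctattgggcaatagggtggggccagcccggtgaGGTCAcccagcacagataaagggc
C3: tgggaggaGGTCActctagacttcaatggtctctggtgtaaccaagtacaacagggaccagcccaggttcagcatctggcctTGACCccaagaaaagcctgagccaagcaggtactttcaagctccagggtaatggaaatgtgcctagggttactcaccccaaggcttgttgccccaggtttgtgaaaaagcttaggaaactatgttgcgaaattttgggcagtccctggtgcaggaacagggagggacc
Greb1: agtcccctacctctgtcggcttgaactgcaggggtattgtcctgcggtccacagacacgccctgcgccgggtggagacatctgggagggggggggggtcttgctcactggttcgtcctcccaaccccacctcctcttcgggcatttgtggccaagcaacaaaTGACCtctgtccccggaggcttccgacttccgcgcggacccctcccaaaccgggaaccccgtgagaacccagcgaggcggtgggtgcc
All 5 genes had an entry in the promoter table, Greb1 with 2 starts. In the 250 bases before the start, searched on both strands, Ltf held 1 GGTCA with its first base 45 bases before the RefSeq start, counting the 21 bases not shown. C3 held GGTCA at 242 and TGACC at 168 bases before it, and Greb1 held TGACC at 88 bases before its outer start. The inner start of Greb1 was preceded by GGTCA at 194 and 85 bases, and Lcn2 and Muc1 held neither motif. The motif occurred in 35.2% of all 32851 promoter windows of this length, and GGTCA followed after 3 bases by TGACC, the full palindrome, occurred in 21 windows and in none of the 5 genes.

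Each tissue expressed the markers of its label. Levels are in FPKM, the number of fragments scaled by transcript length and by the mapped fragments of the library. The 6 uterus identity genes summed to 377 to 395 FPKM in the OC uteruses and to 212 to 328 in the OT uteruses, without overlap. In the ovaries they summed to 24.7 to 104 FPKM. All 6 were lower in the OT uteruses, with log2 differences from -1.14 to -0.44. Whether this bears on the differences of the 5 genes was not tested. The 8 ovary identity genes summed to 1.56 to 11.8 FPKM in the uteruses and to 76.0 to 158 in the ovaries. The summed FPKM of 10 uterine epithelium markers was 452 to 740 in the OC uteruses and 324 to 539 in the OT uteruses, with none at 0. A gene was called higher or lower in OT where the log2 difference was at least 1 and the unadjusted p at most 0.05 in limma, which are the cutoffs of the study, and no gene of either tissue had an adjusted p under 0.05. By this rule 1 of the 10 epithelium markers, Cldn3, fell, and 0 of the 6 uterus identity genes were called. The OT uteruses also carried markers of other tissues. All 10 adipocyte markers rose, with summed FPKM of 1333 to 11979 against 89.5 to 288 in OC, and 7 of the 8 tested stratified squamous epithelium markers rose. The uterus of OT1 stood apart, with the largest adipocyte sum and 48.7 FPKM of the urothelium gene Upk3a, which was at 0 in the other uteruses. The 12 neutrophil markers summed to 9.27 to 14.5 FPKM in the OC uteruses and to 13.8 to 55.8 in OT, most in OT1, where Retnlg made up 39.9 FPKM. Ngp and Camp were at 0 in all uteruses, and 0 of the 6 neutrophil markers tested were called. Adipocyte markers rose in the OT ovaries too, where 5 of the 10 were called higher. Their summed FPKM was 287 to 1918 in the OT ovaries, most in OT1 and then OT2, against 235 to 349 in OC. The ovary libraries also held oviduct markers, with Ovgp1, which encodes the oviductal glycoprotein, at 424 to 942 FPKM. In such bulk samples, fewer cells of a type and less RNA per cell cannot be told apart.

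In the uterus, the antimicrobial genes, C3 and Muc1 differed more among the OT mice than between the groups. By the cutoffs, 0 of the 5 genes were called between OT and OC, where 2.9% of the 14151 tested genes were. The groups were free of overlap for 0 of the 5, against 11.9% of all tested. OT2 held the highest level of Ltf, Lcn2, C3 and Muc1, and OT1 held the lowest level of Ltf, Lcn2, Muc1 and Greb1.

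Ltf was at 189.9, 76.1 and 69.5 FPKM in the OC uteruses and at 24.2, 318, 187 and 149 FPKM in the uteruses of OT1 to OT4. The range of the OT mice enclosed that of the OC mice, with OC1 near OT3 and the lowest and the highest mouse both in OT. The means were 111.8 ± 67.7 (SD, n = 3) in OC and 169.7 ± 121 FPKM (SD, n = 4) in OT. The highest OT uterus stood 13.2-fold above the lowest, against 2.73-fold among the OC uteruses. The log2 difference of OT minus OC was 0.27 (SE 0.82, 95% confidence interval -1.61 to 2.16), with adjusted p = 0.911 by limma.

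Lcn2 was at 20.8, 24.9 and 34.4 FPKM in the OC uteruses and at 10.5, 79.5, 25.5 and 27.1 FPKM in the OT uteruses. OT3 and OT4 lay inside the OC range, OT1 below it and OT2 above it. The difference was 0.08 on the log2 scale (SE 0.58, interval -1.26 to 1.42, adjusted p = 0.967).

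C3 was the most abundant of the 5 genes in the uterus, at 246, 331 and 271 FPKM in OC and at 479.9, 1096, 245 and 274 FPKM in OT. OT1 and OT2 exceeded every OC uterus, while OT4 lay among the OC uteruses and OT3 just below them. The log2 difference was 0.63 (SE 0.48, interval -0.48 to 1.73, adjusted p = 0.670). C3 was the only one of the 5 for which OT1 did not hold the lowest uterine level. The summed FPKM of 8 macrophage markers was likewise highest in OT2 and OT1, at 1392 and 812, against 433 to 461 in OT3 and OT4 and 372 to 432 in OC, with no marker at 0. None of these 8 markers passed the test between the groups, and their part in the levels of C3 was not tested beyond a fit with them as a covariate, in which the difference of C3 was -0.35 (limma, added after the values were seen).

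Muc1 was at 20.0, 15.8 and 13.9 FPKM in the OC uteruses and at 1.97, 39.7, 15.6 and 13.2 FPKM in the OT uteruses. The OC uteruses lay close together, within 1.43-fold, whereas the OT uteruses spanned 20.1-fold, the widest range of the 5 genes. The log2 difference was -0.52 (SE 0.85, interval -2.47 to 1.42, adjusted p = 0.829).

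Greb1 was at 18.03, 21.1 and 30.8 FPKM in OC and at 8.44, 17.0, 18.2 and 20.2 FPKM in OT. Its order of mice was unlike that of the other genes, with OC3 at the top and OT2 below every OC uterus. The log2 difference of -0.58 (SE 0.32, interval -1.32 to 0.16, adjusted p = 0.625) had the smallest error of the 5, and 2 of the 4 OT uteruses lay below the OC range.

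**Figure D1:**
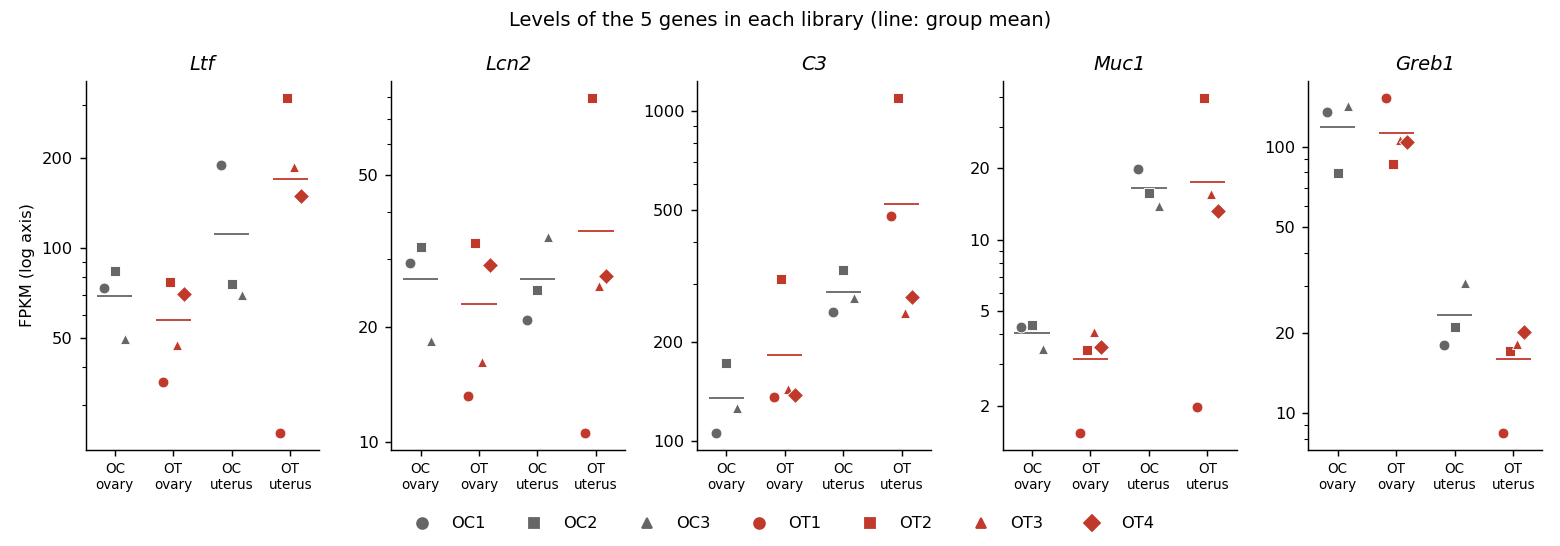
FPKM (log axis) of Ltf, Lcn2, C3, Muc1 and Greb1 in each of the 14 libraries, in 4 groups by tissue and treatment, with 1 symbol per mouse and a line at the group mean. In the uterus the OT mice spread from below to above the OC mice for Ltf, Lcn2 and Muc1, and Greb1 is higher in every ovary than in any uterus.

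In the uterus 0 of the 5 genes had an unadjusted p under 0.05 in limma, against 1160 genes in all. The median log2 difference of the 5 was 0.08, beside 0.01 over all genes. In exact two-sided permutation tests of each gene in each tissue, 10 in all, p ranged from 0.171 to 0.914, and 3 against 4 mice cannot give less than 0.0571. The limma p-values set each difference against a spread between mice that is pooled over OC and OT and drawn toward that of all genes. The groups differed in spread, with a log2 SD of uterine Muc1 of 0.26 in OC and 1.78 in OT. The exact p-values come from relabelling the mice.

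The uterine results of Ltf, Lcn2 and Muc1 rested on single mice. With each mouse left out in turn, the log2 difference stayed negative for Greb1 (-0.75 to -0.30) and positive for C3 (0.18 to 0.90), and neither was called. Without OT1 the log2 difference of Ltf was 1.05 (SE 0.43, adjusted p = 0.510), with an unadjusted p inside the cutoff, so that 1 of the 5 genes was called where 2.09% of all genes were. Without OT1 that of Muc1 turned from -0.52 to 0.30 and that of Lcn2 rose to 0.54, and Greb1 was at -0.30. Without OT2 the difference of Ltf was -0.19, that of Lcn2 -0.43 and that of Muc1 -1.12, and that of C3 dropped to 0.18. Per 100 FPKM of the summed epithelium markers, Ltf came to 25.7, 15.7 and 15.4 in OC and to 7.47, 59.0, 55.3 and 31.2 in OT. By this sum OT1 remained the lowest and the other OT mice lay above the OC mice. For Muc1 the same ratio was 2.70, 3.25 and 3.08 in OC and 0.61, 7.36, 4.62 and 2.75 in OT, which left OT4 among the OC mice. The summed markers did not go together in OT1. Its Krt7, at 40.8 FPKM, was the highest of all uteruses, and its Krt19 was at 93.8 FPKM. Its Epcam, Cdh1 and Cldn3 were the lowest, at 17.4, 10.8 and 28.4 FPKM. OC1 had more Ltf than OT4, at 189.9 against 149 FPKM, but less Epcam, at 52.8 against 71.8 FPKM. By Epcam alone OT4 would thus not lie above OC1 for Ltf. The place of OT1 in both ratios, and that of OT4 in the ratio of Ltf, therefore depends on which markers are summed. Other ratios to single markers were not taken. With the mean log2 level of the epithelium markers as a covariate, the difference of Ltf was 1.34 (SE 0.29, limma, adjusted p = 0.323) and that of Muc1 0.51. The adipocyte and urothelium markers of OT1 are given above, and their part in its low levels was not tested.

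**Figure D2:**
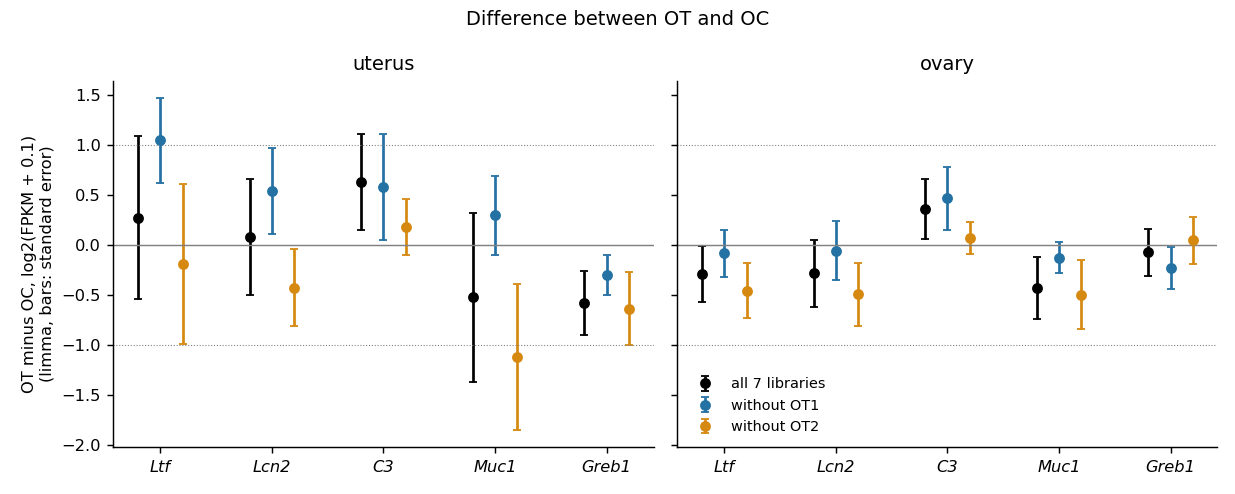
Log2 difference of OT minus OC (log2 of FPKM + 0.1) for each gene in the uterus and the ovary, from limma on all 7 libraries of a tissue and with OT1 or OT2 left out; bars are standard errors and dotted lines mark 1 and -1. In the uterus the difference of Ltf moves between -0.19 and 1.05 and that of Muc1 between -1.12 and 0.30, while in the ovary the differences with all 7 libraries lie between -0.43 and 0.36.

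In the ovary, the 5 genes varied less among the mice, and none differed between OT and OC beyond their spread. Ltf was at 73.8, 83.9 and 49.6 FPKM in OC and at 35.6, 77.4, 47.6 and 70.3 FPKM in OT. Lcn2 was at 29.4, 32.3 and 18.4 FPKM in OC and at 13.2, 33.1, 16.1 and 29.1 FPKM in OT. For both, OT1 was the lowest mouse, followed by OT3 and OC3, and the OT mice reached from below the OC range into it or past its top. The log2 differences were -0.29 for Ltf (SE 0.28, interval -0.93 to 0.35) and -0.28 for Lcn2 (SE 0.34, interval -1.05 to 0.48), both with adjusted p = 0.997.

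C3 was at 106, 173 and 127 FPKM in the OC ovaries and at 137, 310.4, 144 and 138 FPKM in the OT ovaries. OT2 was again the highest mouse and stood far above the other OT ovaries, which lay inside the OC range. The log2 difference was 0.36 (SE 0.30, interval -0.32 to 1.04, adjusted p = 0.997), and it was 0.073 without OT2. The summed macrophage markers ran from 307 to 412 FPKM in the OC ovaries and from 402 to 587 in the OT ovaries, with none at 0 and OT2 the highest, and 0 of the 8 were called. C3 and this sum correlated over the 7 ovaries at r = 0.692 (exact permutation p = 0.0690, adjusted 0.0690) and rho = 0.714 (exact permutation p = 0.0881, adjusted 0.132), and at r = 0.769 without OT2 and OT4, in a relation chosen after the values were seen. The part of these markers in the level of C3 was not tested further.

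Muc1 was low in the ovary, at 4.29, 4.38 and 3.47 FPKM in OC and at 1.54, 3.45, 4.10 and 3.53 FPKM in OT. OT1 lay apart below the other mice, as it did in the uterus. The log2 difference was -0.43 (SE 0.31, interval -1.13 to 0.28, adjusted p = 0.997).

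Greb1 was at 134, 79.9 and 142 FPKM in the OC ovaries and at 152, 85.9, 106 and 104 FPKM in the OT ovaries. OT1, the lowest uterus, was the highest ovary, and OC2 and OT2 were the lowest ovaries. The log2 difference was -0.07 (SE 0.24, interval -0.61 to 0.47, adjusted p = 0.998).

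In the ovary too, 0 of the 5 genes were called, where 0.451% of the 14415 tested genes were, and 0 had an unadjusted p under 0.05 in limma, against 650 genes in all. The groups were free of overlap for 0 of the 5, against 5.91% of all. The median log2 difference was -0.28 over the 5 genes and -0.01 over all. The difference between the tissues in the response to AMSC-CM, tested in 1 fit over 14 libraries, was called for 0 of the 5 genes and for 1.83% of 14557, with values from -0.51 for Greb1 to 0.57 for Ltf and adjusted p from 0.851 to 0.986.

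Between the tissues, C3 and Muc1 were higher in the uterus, Greb1 was higher in the ovary, and Ltf and Lcn2 did not pass the test. This tissue contrast was called at an adjusted p under 0.05 and a log2 difference of at least 1, and 3 of the 5 genes were called, where 19.6% of 14557 were. Muc1 was 1.95 higher in the uterus on the log2 scale (SE 0.49, adjusted p = 0.00482) and C3 1.22 higher (SE 0.31, adjusted p = 0.00510). Each was higher in the uterus in 7 of 7 mice, by between 0.34 and 3.49 for Muc1 and between 0.77 and 1.82 for C3. Greb1 differed by -2.59 (SE 0.22, adjusted p = 4.80e-07) and was higher in the ovary in 7 of 7 mice. For each of these 3 genes the exact sign-flip permutation over the mice gave p = 0.0156, the smallest that 7 mice allow, in 5 such tests.

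Ltf was higher in the uterus by 0.85 (SE 0.48, adjusted p = 0.150), in 5 of 7 mice, with OC2 and OT1 the other way. Without OT1 this difference was 1.13 and was called (adjusted p = 0.00382). Lcn2 differed by 0.19 (SE 0.37, interval -0.61 to 0.99, adjusted p = 0.684) and was higher in the uterus in 3 of 7 mice. Greb1 thus went against the name of the group by its place, and Ltf and Lcn2 were as abundant in ovary libraries as in some uteruses. All 6 oviduct markers were more abundant in the ovary libraries than in the uteruses, at summed levels of 471 to 992 against 7.42 to 173 FPKM, and their part in the ovarian Ltf and Lcn2 was not tested in this contrast.

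The order of the 5 genes also differed between the tissues. In the uterus C3 had the highest mean FPKM over the 7 libraries, 420.6 ± 309 (SD, n = 7), followed by Ltf at 144.9 ± 99.0, Lcn2 at 31.8 ± 22.2, Greb1 at 19.1 ± 6.62 and Muc1 at 17.2 ± 11.4. C3 exceeded Ltf, Ltf exceeded Lcn2, and Lcn2 exceeded both Greb1 and Muc1 in every uterus, although the ranges of neighbours overlapped across mice. Greb1 and Muc1 changed places between mice and did not differ beyond their spread. In the ovary C3 at 162 ± 68.4 and Greb1 at 114.8 ± 28.2 FPKM overlapped, as did Greb1 and the highest Ltf values, with Ltf at 62.6 ± 18.2. Lcn2 at 24.5 ± 8.30 lay below every Ltf value and Muc1 at 3.54 ± 0.97 below every Lcn2 value.

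Whether the genes ranked the mice alike was examined by correlation over the 7 libraries of a tissue, on log2 values, in 10 pairs per tissue. In the ovary, Ltf and Lcn2 moved together, with Pearson r = 0.988 (exact permutation p = 0.000595, adjusted 0.00595) and Spearman rho = 0.964 (exact permutation p = 0.00278, adjusted 0.0278). Without OT1 and OT3, the mice farthest from the median of Ltf, r was 0.981. Greb1 ran the other way, with r = -0.727 to Ltf, -0.688 to Lcn2 and -0.703 to C3, and none of these passed the correction (adjusted p 0.144 to 0.155, exact permutation tests). The ovaries were examined in this way after the uterine pairs had been seen.

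Ovgp1 placed the ovaries in a similar order. It was at 863, 852 and 568 FPKM in OC and at 424, 725, 569.6 and 942 FPKM in OT, with OT1, OC3 and OT3 the lowest, as for Ltf and Lcn2. The 5 other oviduct markers, genes of ciliated cells, did not share this order, since their sum was 46.5, 38.0 and 38.0 FPKM in OC and 46.6, 45.8, 30.0 and 49.5 FPKM in OT and was high in OT1. Ovgp1 made up 90.1% to 95.7% of the sum of all 6. Over the 7 ovaries, Ltf correlated with Ovgp1 at r = 0.929 and Lcn2 at r = 0.918 (exact permutation p = 0.00714 and 0.00952, adjusted over 4 relations 0.0190 for both). Spearman's rho was 0.643 for Ltf and 0.607 for Lcn2 (exact permutation p = 0.139 and 0.167, adjusted 0.333 for both), and without OT1 and OT4 r was 0.932 and 0.894. With the sum of the 5 other markers r was 0.231 for Ltf and 0.364 for Lcn2, and rho -0.143 and -0.071 (exact permutation p from 0.414 to 0.906). These relations were chosen after the values were seen. The part of the oviduct in the ovarian levels was not tested beyond a fit with the mean log2 level of all 6 markers as a covariate. In that fit the OT difference was -0.34 for Ltf and -0.35 for Lcn2. All 6 markers weigh alike in this mean, so the fit cannot decide the part of Ovgp1 alone.

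Greb1 in the ovary followed Inha, a gene of the granulosa cells, which surround the oocyte and make estrogen. Inha, which encodes the alpha subunit of inhibin, was at 616, 259 and 643 FPKM in OC and at 614, 232, 421 and 410.1 FPKM in OT. The ovaries low in Inha, OC2 and OT2, were those low in Greb1. The correlation, chosen after the values were seen as 1 of 3 such relations, was r = 0.966 (exact permutation p = 0.00357, adjusted 0.0107) and rho = 0.857 (exact permutation p = 0.0238, adjusted 0.0714), and r was 0.960 without OC2 and OT2. Cyp19a1, which encodes aromatase, was lowest in the same 2 ovaries, at 2.55 and 1.72 FPKM, against 7.94 to 14.7 in the others. Fshr was also lowest there, at 2.08 and 1.26 FPKM. Amh and Foxl2, which granulosa cells also express, did not share this order. Amh was lowest in OC2, at 9.98 FPKM, but at 17.4 in OT2, above OT3 at 14.8. Foxl2 was lowest in OT4, at 14.7 FPKM, and lower in OC1, at 15.6, than in OT2, at 18.4.

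In the uterus, the closest pair was Ltf and Muc1, with r = 0.902 (exact permutation p = 0.00595, adjusted 0.0595) and rho = 0.821 (exact permutation p = 0.0341, adjusted 0.341), and r = 0.719 without OC3 and OT1. No uterine pair passed the correction. Lcn2 and Muc1 reached r = 0.860 (exact permutation p = 0.0464, adjusted 0.218), which turned to -0.809 without OT1 and OT2, so this relation rested on those mice. For C3 and the summed uterine macrophage markers, examined after the values were seen, r was 0.971 (exact permutation p = 0.00933, adjusted 0.0140) and rho 0.607 (exact permutation p = 0.167), and r was 0.20 without OT1 and OT2, so the relation rested on these mice.

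**Figure D3:**
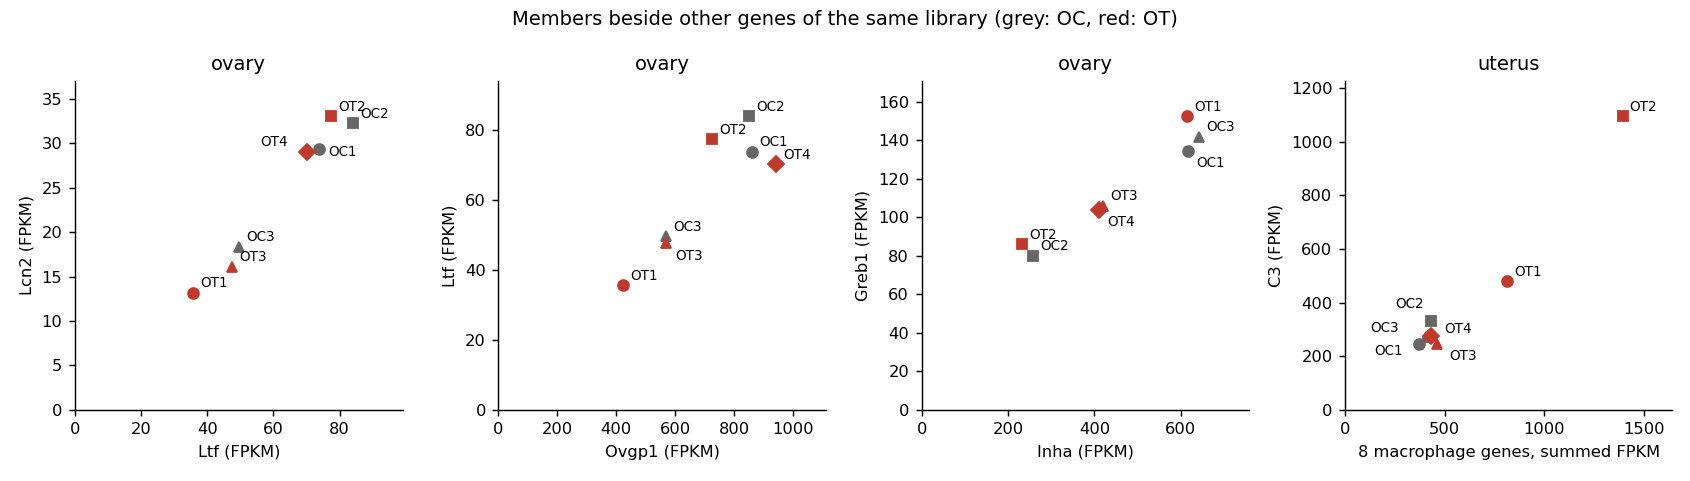
Levels in FPKM (linear axes from 0) of pairs of genes or summed markers in the same library, with 1 point per mouse, OC in grey and OT in red. In the ovary Lcn2 follows Ltf, Ltf follows Ovgp1 and Greb1 follows Inha, and in the uterus C3 and 8 summed macrophage genes are both highest in OT2 and next in OT1, with the other 5 mice close together.

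Each gene was also compared between the ovary and the uterus of the same mouse, in 5 relations. For C3, r was 0.879 (exact permutation p = 0.0331, adjusted 0.166) and rho 0.50 (exact permutation p = 0.267), and r was 0.0964 without OC1 and OT2. For Muc1, r was 0.847 (exact permutation p = 0.0800) and -0.146 without OC2 and OT1, so both rested on these mice. Ltf gave r = 0.646, Lcn2 0.579 and Greb1 -0.262, with exact permutation p from 0.121 to 0.624. OT1 was thus low in Ltf, Lcn2 and Muc1 in both tissues, and OT2 was high in C3 and Lcn2 in both.

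**Figure D4:**
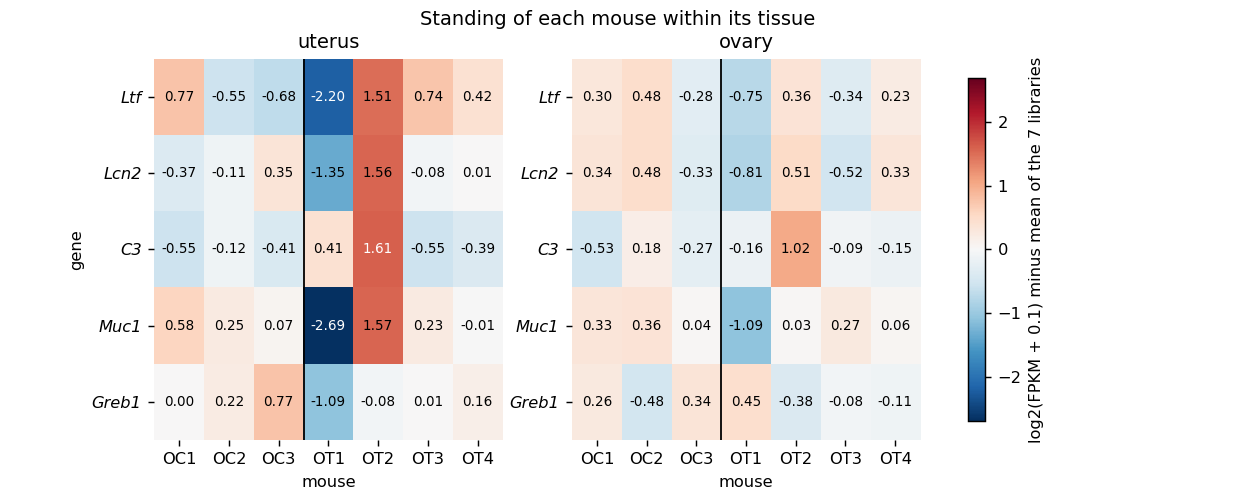
Log2(FPKM + 0.1) of each gene in each mouse minus the mean of the 7 libraries of that tissue, with OC mice left and OT mice right of the line; red is above and blue below the mean. In the uterus OT2 is highest for Ltf, Lcn2, C3 and Muc1 (1.51 to 1.61) and OT1 is lowest for Ltf, Lcn2, Muc1 and Greb1 (-1.09 to -2.69), while in the ovary Greb1 has the opposite sign to Ltf in 5 of the 7 mice.

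The other parts of the estrogen response behaved as follows between OT and OC. Of 16 other estrogen-responsive uterine genes, 13 could be tested in the uterus and 0 were called, with a median log2 difference of 0.24 beside 0.01 over all genes, and 12 could be tested in the ovary with 0 called and a median of -0.15. Sprr2f, a small proline-rich protein gene of the epithelium, was at 94.0, 17.1 and 9.75 FPKM in the OC uteruses and at 36.0, 59.6, 101 and 62.7 FPKM in OT, and its groups overlapped. Cfb, which encodes complement factor B, was at 41.4, 23.4 and 22.2 FPKM in OC and at 36.8, 99.6, 29.7 and 26.8 FPKM in OT, so that OT2 was the highest uterus for it as for C3. Both genes had been chosen with their values in view. Between the tissues, 9 of the 13 were higher in the uterus and 1, Inhbb, which encodes an inhibin and activin subunit, was higher in the ovary.

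Of 10 genes listed as steroid receptors and their cofactors, 8 were tested in the uterus and 9 in the ovary. Between OT and OC 0 were called in either. The list also held Foxa2, which is among the epithelium markers, and it shared Pgr with the other estrogen-responsive genes. Esr1 was at 178, 169 and 171 FPKM in the OC uteruses and at 89.4, 163, 142 and 165 FPKM in the OT uteruses, with OT1 apart below the rest. In the ovaries Esr1 was at 42.8 to 71.9 FPKM and Esr2, which encodes the estrogen receptor beta of granulosa cells, at 6.29 to 16.6 FPKM. In the uteruses Esr2 was at 0 to 0.122 FPKM. The Esr1 level was 1.43 higher in the uterus than in the ovary on the log2 scale (SE 0.15, adjusted p = 2.80e-06). Of the progesterone-responsive genes, 2 of the 8 tested were lower in the OT uteruses, Il13ra2, a decoy receptor of interleukin 13, by a log2 difference of -1.85 (limma, adjusted p = 0.485) and Calca, which encodes calcitonin, by -1.04 (adjusted p = 0.485). The median of these 8 was -0.72, beside 0.01 over all genes. In the same comparison it was -0.47 over the 6 uterus identity genes and -0.46 over the 10 uterine epithelium markers. The part of tissue content in the lower progesterone-responsive genes was not tested. Of 8 proliferation genes 0 were called in either tissue, and of 12 genes of ovarian steroid synthesis 0 were called in the ovary.

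The genes most like each of the 5 over the 7 uteruses were taken by Pearson r among 14134 genes, as a description over 7 libraries that include OT1 and OT2. Those of Ltf were Hs6st1 (r = 0.986), Meis1 (r = 0.986) and the epithelial factor Elf3 (r = 0.983), and those of Muc1 were the adhesion molecule Ceacam1 (r = 0.987), App (r = 0.985) and Nipal3 (r = 0.983). Those of Lcn2 were Plekhg5 (r = 0.998), Pcdh18 (r = 0.990) and Aph1c (r = 0.982). Those of C3 were the integrin gene Itga4 (r = 0.984), Zfp688 (r = 0.984) and the macrophage gene Cd68 (r = 0.983). Those of Greb1 were Aagab (r = 0.989), Gpr161 (r = 0.986) and Syt6 (r = 0.985). Between 8 and 86 genes exceeded r = 0.95 to a given gene, so these names are the top of longer lists. No gene stood among the 3 nearest of more than 1 of the 5.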

How the data were processed

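The 14 libraries, from 3 OC and 4 OT mice, were made after rRNA depletion with a stranded kit, and tissue, group and mouse were read from the labels. The authors deposited gene-level FPKM, obtained with STAR 2.5 on mm10 and Cufflinks 2.2.1. FPKM carry no counts, so the depth is unknown and no counting interval was given, and Cuffdiff, the tool of the study, needs reads and was not run. All 21853 identifiers matched GENCODE mouse release M21 on GRCm38, and 48 identifiers shared a symbol with another. Total FPKM ran from 374816 to 397644 in the ovaries and from 425875 to 577494 in the uteruses.

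The limma package (3.58.1, R 4.3.3, with lmFit and a trended eBayes) was run per tissue on log2(FPKM + 0.1) of all genes that averaged 0.5 FPKM or more, so that changes of low genes are understated, and p-values were adjusted by Benjamini-Hochberg over all genes tested. The tissue contrast and the difference in response were fitted on the 14 libraries. Exact permutation tests and correlations were two-sided and run in Python 3.11.15 with scipy 1.17.1. The fits were tested on simulated data. Ovary and uterus of 1 mouse share a label. The deviations of the 2 tissues from their group means correlated at 0.0740 to 0.254 per mouse, and the fits with the mouse as a block are alternatives. Marker levels as covariates, left-out mice, other filters and pseudocounts were also tried.

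The 5 genes and all lists were chosen with earlier results of these data known. Genes named beside the 5 were those called in a list, up to 3 with the largest difference, and the 3 most like each of the 5 in the uterus. Sprr2f, Cfb, Esr1, Esr2, Inha, Cyp19a1, Fshr, Amh, Foxl2, Inhbb, Ovgp1, Upk3a, Retnlg, Ngp and Camp were named after their values were seen. So were Krt7, Krt19, Epcam and Cdh1. Foxa2 and Pgr were named only because lists shared them. Macrophage and oviduct covariates, the ovary correlations and the relations to Ovgp1 and to summed markers were added after seeing the data.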

Additional observations from a re-analysis of the deposited data

Results flagged for a closer look

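C3 in the OT ovaries held a mouse far from the others. OT2 was at 310.4 FPKM, while OT1, OT3 and OT4 were at 137, 144 and 138 FPKM. On the log2 scale, the gap between OT2 and the next ovary made up 0.938 of the whole range of the 4 mice. This was above the critical value of 0.829 for 4 samples. Of the 10 sets of OT values examined, 5 genes in 2 tissues, this was the only one past that value, and chance alone passes it in about 1 of 20 sets. The nearest below were Muc1 in the OT ovaries, where OT1 gave 0.820, and Greb1 in the OT uteruses, where OT1 gave 0.805.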

How the results depend on the processing

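With other settings the count of the 5 genes called between OT and OC in the uterus was 1 with the epithelium markers as a covariate, 3 with the adipocyte markers as a covariate, and 0 to 1 when each mouse was left out in turn, 1 without OT1. The count was 0 to 0 in the ovary, 3 to 4 between the tissues and 0 to 0 for the difference in response when each mouse was left out. The epithelium covariate gave 1.34 for Ltf and 0.51 for Muc1. The adipocyte covariate gave 4.17 for Ltf, 2.13 for Lcn2, 3.24 for Muc1 and 0.28 for Greb1 in the uterus, where its summed levels do not overlap between OC and OT, and 0.19 for Muc1 in the ovary. The macrophage covariate, added after seeing the data, gave -0.40 for Lcn2 and -0.35 for C3. The cause of these changes was not tested. With each mouse left out, the uterine difference ran from -0.19 to 1.05 for Ltf, from -0.43 to 0.54 for Lcn2 and from -1.12 to 0.30 for Muc1. The ovarian difference of Greb1 ran from -0.33 to 0.080, the tissue difference of Lcn2 from -0.029 to 0.32 and of Ltf from 0.65 to 1.13, and the difference in response of Muc1 from -0.63 to 0.42.

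The mouse as a replicate block left 3 genes called between the tissues, with Ltf at 0.85 (limma, adjusted p = 0.0460), and 0 for the difference in response. OC and OT mice of the same number are different animals. The block by number, with OT4 left out, called 0 genes in both tissues (Greb1 -0.72 and C3 0.85 in the uterus, C3 0.46 in the ovary), and the pairs of deviations correlated at 0.0797, 0.00115 and -0.0275 in the uterus and 0.331, 0.0448 and 0.0800 in the ovary, with the own number best for 1 of 3 and 2 of 3 mice. The block changed no other call. With 3 and 4 mice and unknown depth, the interval of each uterine difference includes a change of 1 log2 unit up or down, so these data do not bound the changes below that size.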

Other observations

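Over the ovaries, searched after the values were seen among 14397 genes, the gene most like C3 was Cfb, which encodes complement factor B of the alternative pathway (r = 0.990), followed by 4930579G24Rik (r = 0.973) and the macrophage-expressed F13a1 (r = 0.970). Cfb was at 4.71, 9.18 and 6.86 FPKM in the OC ovaries and at 7.74, 21.2, 7.79 and 6.81 FPKM in the OT ovaries, with OT2 the highest as for C3. In the uterus Cfb and C3 correlated at r = 0.841, with OT2 the highest for both, at 99.6 and 1096 FPKM. OC1 held the next highest Cfb there, at 41.4 FPKM, but a C3 of 246 FPKM, above only that of OT3. This correlation was not examined with OT2 left out. The gene most like Muc1 in the ovary was Prss8, a membrane protease gene of epithelia (r = 0.988). Those most like Ltf were Eif3i (r = 0.996), Capg (r = 0.990) and the keratin gene Krt8 (r = 0.983), and those most like Greb1 were Obsl1 (r = 0.973), Hsf2 (r = 0.972) and Inhbb (r = 0.969). Eif3i was also among the 3 nearest to Lcn2 (r = 0.976).

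The ovary libraries differed in the uterine gene Hoxa10, at 3.92, 53.4 and 27.7 FPKM in OC and at 0.572, 6.09, 48.9 and 23.4 FPKM in OT.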
